A study of Mus musculus with 24 samples.

Results

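The ETn and MusD elements of the mouse were followed in the MeRIP-seq count table of mouse ES cells, in which reads are counted per gene and per repeat subfamily. The members are the subfamilies whose name before the first colon starts with ETnERV, MMETn or RLTRETN, and 5 of the 1153 repeat subfamilies met this rule. They are 4 entries for the internal sequence between the long terminal repeats (LTRs), MMETn-int, ETnERV-int, ETnERV2-int and ETnERV3-int, and 1 LTR entry, RLTRETN_Mm. All of them belong to ERVK, a class with 285 subfamilies in the table. The family was chosen by a measured value, the input level of ETnERV3-int, which was lower in *Mettl14* KO than in WT26 cells. That difference, and every comparison that shares its libraries, is therefore given as a description without a test.

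ETn and MusD are endogenous retroviruses, copies of ancient retroviral infections that sit in the mouse genome between a pair of LTRs and lack an envelope gene. MusD copies retain retroviral genes, while ETn copies have lost them and move only with proteins supplied by MusD. Both are transcribed from their LTRs in the early embryo and in ES cells, where KRAB zinc finger proteins, the corepressor Trim28, the histone methyltransferase Setdb1 and DNA methylation are known to silence ERVK copies. The m6A mark is set on RNA by a complex of Mettl3, the catalytic subunit, and Mettl14, its RNA-binding partner.

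Nuclear RNA was taken from 4 ES cell lines of 129/Sv x C57Bl6 background, grown on gelatin with Serum Replacement and LIF. WT26 is wild type, and the *Mettl14* KO line is the A10 clone made from WT26 with CRISPR/Cas9, which carries a homozygous frameshift deletion in *Mettl14* and an intact catalytic domain of *Mettl3*. RBC is an engineered wild type line with Rosa26 BirA-V5 and Cre-ERT2 recombinase, and the *Mettl3* KO line is the 2c4d clone derived from RBC, so that both members of this pair carry the same transgenes. Each line had 2 libraries of input RNA, 2 of RNA precipitated with an m6A antibody (IP) and 2 of nuclear RNA-seq. Each knockout is 1 clone, so a difference from its control cannot be told apart from a difference between clones.

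The 16 MeRIP-seq libraries held 9394163 to 28441282 reads and the 8 RNA-seq libraries 11321459 to 13743181. Repeats took 32.7 to 43.3% of the reads in inputs and 25.6 to 42.0% in IPs. The IP libraries numbered 2 stood apart from those numbered 1 in all 4 lines: the median repeat subfamily was 0.57 to 0.88 lower on the log2 scale, while the median gene was 0.09 to 0.14 higher. In the inputs the same medians differed by at most 0.14. RNA of *Mettl14* in RNA-seq was at 401 and 358 normalized counts in WT26 and at 296 and 316 for *Mettl14* KO, and RNA of *Mettl3* was at 928 and 979 for RBC and at 880 and 821 for *Mettl3* KO. *Mettl14* RNA fell by 0.31 on the log2 scale in its knockout (adjusted p = 0.00609, edgeR), and *Mettl3* RNA had a log2 fold change of -0.16 in its own (adjusted p = 0.0588). *Mettl3* overlaps *Tox4* on the other strand, and whether the counting used strand is not given in the sources used here, so its reads may include those of *Tox4*. The 10 ES cell markers summed to between 35639 and 40508 normalized counts in the controls, to 27737 and 27921 for *Mettl14* KO and to 21881 and 22330 for *Mettl3* KO, and none was at 0. *Tdgf1*, the largest part of the sum in RBC, was at 10308.1 and 10744.6 there and at 4058.4 and 4391.6 for *Mettl3* KO. *Klf4* was higher in *Mettl3* KO (1867.9 and 1852.3, against 1255.3 and 1230.3 for RBC). The 5 primitive endoderm markers summed to 52.4 and 55.8 for WT26 and to 165 and 173 for *Mettl14* KO, and to between 99.1 and 133 in RBC and *Mettl3* KO, which overlapped. *Sox17* was lower in *Mettl14* KO (6 and 1.9, against 6.3 and 7.5 for WT26). The 5 fibroblast markers summed to 82.3 to 84.8 for WT26 against 27.3 to 29.0 for *Mettl14* KO. Their sum was 101 to 110 for RBC against 45.2 to 62.4 for *Mettl3* KO. *Thy1* made up most of the sum in the controls (75.1 and 79.4 for WT26, 80.5 and 98.6 for RBC) and was lower in both knockouts. *Col1a2* was higher in both. It was at 1.8 and 1.1 for WT26 against 4 and 5.8 for *Mettl14* KO, and at 6.9 and 3 for RBC against 22.6 and 24.2 for *Mettl3* KO. The 4 trophoblast markers summed to 217 to 230 for WT26 against 288 to 289 for *Mettl14* KO. Their sum was 261 to 270 for RBC against 325 to 346 for *Mettl3* KO. Nearly all of it was *Tfap2c*, at 211.6 and 225.5 for WT26, 287.4 and 280.6 for *Mettl14* KO, 258.7 and 258.3 for RBC, and 313.1 and 331.4 for *Mettl3* KO. *Gata3* was lower in *Mettl14* KO than in WT26 and higher in *Mettl3* KO than in RBC, at no more than 11.1. The 4 primed epiblast markers summed to between 902 and 1242, and the sum was lower in both knockouts. Most of it was *Dnmt3b* (1072.5 and 1128.4 for WT26, 861 and 911.9 for RBC), which was lower in both. *Otx2* was higher in *Mettl14* KO (84.1 and 132.5, against 72.3 and 65.5 for WT26). *Pou3f1* was higher in *Mettl3* KO (40 and 37.3, against 25.3 and 35.5 for RBC). Each was lower in the other knockout. In a line 0 to 2 of the markers of a list were at 0. The part of these shifts in the ETn and MusD levels was not tested, and in bulk RNA fewer cells of a type and less RNA per cell cannot be told apart.

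Values below are normalized counts, the deposited read counts divided by a size factor per library. Reads that map to several copies were divided among them by the authors' counting, so near-identical subfamilies can share reads and the 5 entries are not independent. Subfamilies differ in the sequence they cover in the genome, so levels are compared between libraries and not between members. Every member passed the filter on low counts, and the lowest raw count of any member in any library was 379.

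The internal entry with the most reads was MMETn-int, which took 67.4 to 72.3% of all ETn and MusD reads in the inputs. Its input level was 88783 and 86940 normalized counts in WT26 and 72200 and 71429 for *Mettl14* KO. It was 123878 and 144385 for RBC and 78173 and 84649 for *Mettl3* KO. The RBC inputs stood above those of the other 3 lines, and in both pairs the knockout inputs lay below those of their control.

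ETnERV-int, the second internal entry by reads, followed MMETn-int in part. Its input level was 22744 and 23700 for WT26, 27125 and 22649 for *Mettl14* KO, 43748 and 45342 for RBC, and 30017 and 29511 for *Mettl3* KO. The RBC inputs were again the highest, whereas WT26 and *Mettl14* KO overlapped. ETnERV2-int varied over a narrow range, with 2439 and 2686 for WT26, 2005 and 1900 for *Mettl14* KO, 2399 and 2781 for RBC, and 2322 and 2311 for *Mettl3* KO. The inputs of WT26 and RBC overlapped for this entry.

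ETnERV3-int had a pattern of its own and was high in a single line. Its input level was 6434 and 5012 for WT26, 1409 and 1374 for *Mettl14* KO, 1291 and 1537 for RBC, and 1088 and 1103 for *Mettl3* KO. Both WT26 inputs stood above the other 6 inputs, which included the second wild type line, and *Mettl14* KO and RBC overlapped.

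RLTRETN_Mm, the LTR entry, was at 6341 and 4844 for WT26, 4420 and 4321 for *Mettl14* KO, 6022 and 5629 for RBC, and 4274 and 4310 for *Mettl3* KO. The WT26 inputs lay on both sides of the RBC inputs, and both controls were above both knockouts. The order of the 4 lines by mean input level thus differed between members: RBC led for MMETn-int, ETnERV-int, ETnERV2-int and RLTRETN_Mm, and WT26 led for ETnERV3-int. For ETnERV2-int and RLTRETN_Mm the libraries of RBC and WT26 overlapped.

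**Figure D1:**
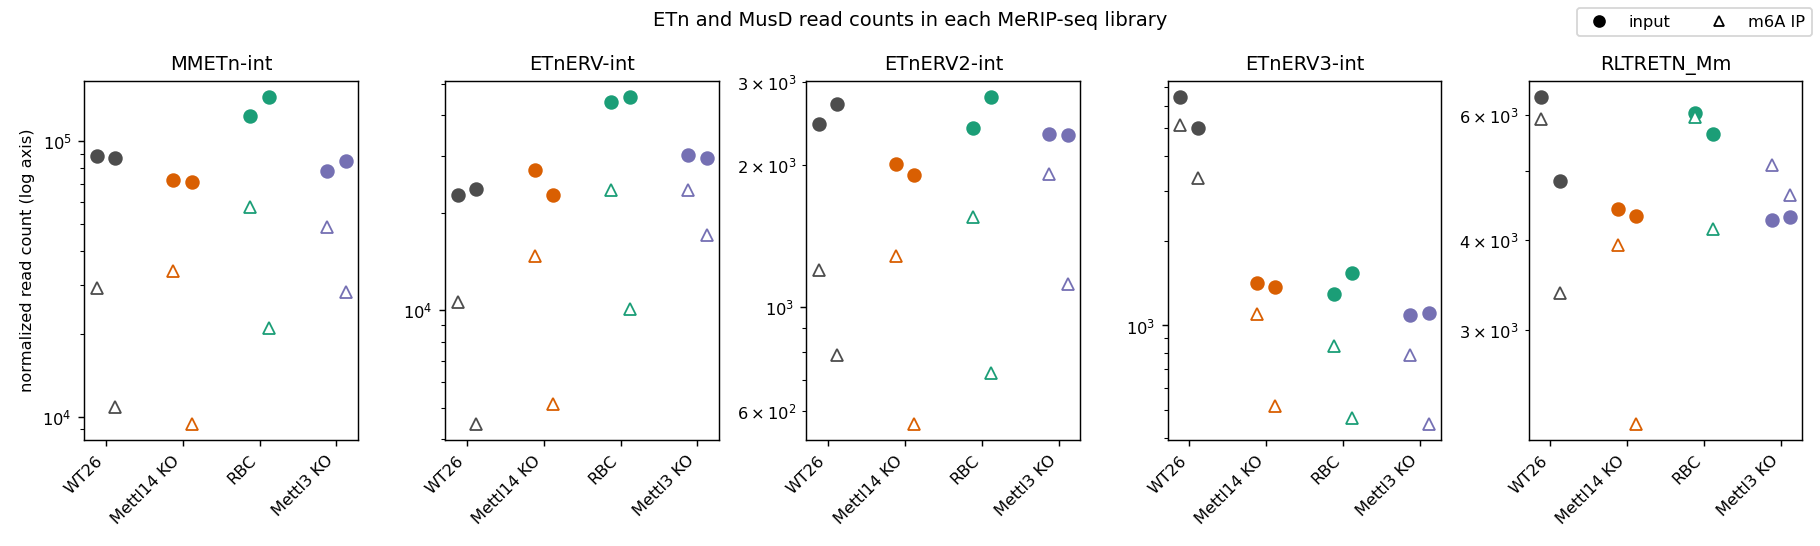
Normalized read counts (log axis, a separate range per panel) of the 5 ETn and MusD entries in each MeRIP-seq library, by line; each point is a library, filled circles are inputs and open triangles m6A IPs, with replicate 1 on the left. ETnERV3-int is at 6434 and 5012 in the WT26 inputs and at 1088 to 1537 in the other 6, whereas MMETn-int and ETnERV-int are highest in the RBC inputs.

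The make-up of the family differed between lines in the same way, and shares within a library do not depend on how libraries are scaled. ETnERV3-int gave 5.08 and 4.07% of ETn and MusD reads in the WT26 inputs and 0.728 to 1.35% in the other 6. In the IPs its share was 9.82 and 14.6% for WT26, 2.00 and 2.90% for *Mettl14* KO, 0.945 and 1.28% for RBC, and 0.981 and 0.867% for *Mettl3* KO. WT26 was set apart from the other lines in both kinds of library. Per 100 reads of MMETn-int, the inputs held 7.25 and 5.77 reads of ETnERV3-int in WT26 and 1.04 and 1.06 for RBC.

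**Figure D2:**
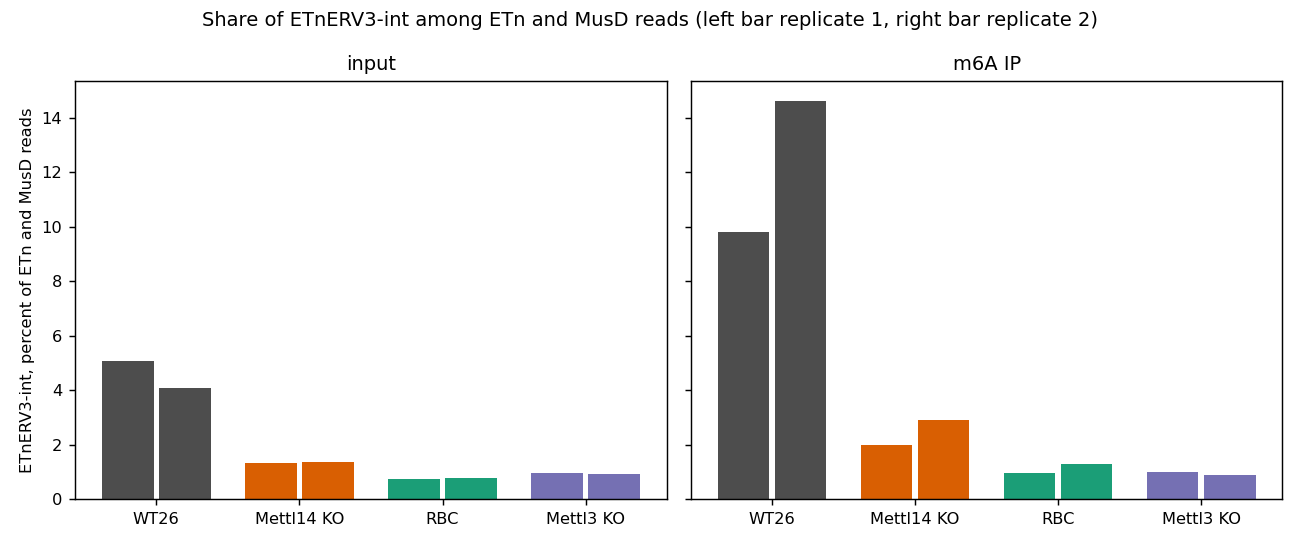
Share of ETnERV3-int in all ETn and MusD reads (percent) in input and m6A IP libraries of the 4 lines; each bar is a library, left replicate 1 and right replicate 2. The WT26 libraries reach 5.08 and 4.07% in input and 9.82 and 14.6% in IP, and no other library passes 2.90%.

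The family as a whole made up 26.1 and 27.9% of all ERVK reads in the RBC inputs and 17.4 to 20.3% in the inputs of the other lines. Summed over its 5 entries it came to 177337 and 199674 normalized counts in RBC, 115875 and 121883 for *Mettl3* KO, 126742 and 123181 for WT26, and 107159 and 101674 for *Mettl14* KO. The log2 ratio of group means was -0.67 for *Mettl3* KO against RBC and -0.26 for *Mettl14* KO against WT26. Both knockouts lay below their control without overlap.

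*Mettl14* KO was compared with WT26 in input RNA to ask whether transcript levels shift when the m6A writer is disrupted. ETnERV3-int, by which the family was picked, was 4.11-fold lower in *Mettl14* KO (log2 fold change -2.04), the lowest of the 277 ERVK subfamilies that passed the filter. The log2 fold changes of the other members were -0.39 for ETnERV2-int, -0.36 for RLTRETN_Mm, -0.29 for MMETn-int and 0.10 for ETnERV-int. The members had a median of -0.36, against 0.05 for the other 272 ERVK subfamilies and 0.02 for all 22621 features. In 4 of the 5 members both *Mettl14* KO libraries lay below both WT26 libraries, and 24.3% of all features did so. Without WT26 input replicate 1 RLTRETN_Mm was at -0.15, and without *Mettl14* KO input replicate 1 ETnERV-int was at -0.04.

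The 2 control lines also differed from each other. ETnERV3-int was 4.05-fold lower in RBC than in WT26 (log2 fold change -2.02), again the lowest of the 277 ERVK subfamilies, while ETnERV-int was 1.92-fold higher (0.94), the highest of the 277. MMETn-int was 1.53-fold higher in RBC (0.61), and ETnERV2-int and RLTRETN_Mm had log2 fold changes of 0.015 and 0.059. The comparison shares the WT26 inputs with the one before it. The 3 lines other than WT26 had similar levels of ETnERV3-int, and a loss with the knockout cannot be told apart here from a high level of the WT26 cultures.

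*Mettl3* KO was compared with RBC in input RNA, in libraries that were not used to pick the family. All 5 members were lower in *Mettl3* KO without overlap of the libraries, which held for 27.6% of all features, but none passed the test. The largest difference was that of MMETn-int, 1.65-fold lower (log2 fold change -0.72, 95% interval -1.98 to 0.54, adjusted p = 0.737, edgeR's quasi-likelihood test on all 16 libraries). ETnERV-int was 1.5-fold lower (-0.58, interval -1.64 to 0.48, adjusted p = 0.752), RLTRETN_Mm had a log2 fold change of -0.44, ETnERV3-int of -0.37 and ETnERV2-int of -0.16, and the adjusted p of the 5 ranged from 0.685 to 0.945. The median of the members was -0.44, against 0.02 for the other ERVK subfamilies and 0.01 for all features. By the adjusted p 0 members passed in edgeR and 0 in DESeq2, as 0.76% and 1.96% of all features did, and at an unadjusted p under 0.05 there were 0 by either tool, against 11.7% of all features in edgeR.

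The spread in that fit is shared with the IP libraries, which vary more between replicates. In a fit of the 8 input libraries alone, chosen after seeing the data, 2 members were lower in *Mettl3* KO, MMETn-int (-0.74, adjusted p = 0.00197) and ETnERV-int (-0.60, adjusted p = 0.00874), and RLTRETN_Mm stood at an adjusted p of 0.0515. In this fit 6.72% of the features were lower. With the replicate number as a block of its own within inputs and within IPs, also chosen after seeing the data, MMETn-int was lower (-0.72, adjusted p = 0.0168), ETnERV-int stood at an adjusted p of 0.057, and 5.23% of the features were lower. Over all 15 alternatives the adjusted p of MMETn-int ran from 0.00197 to 0.986, and it was at most 0.05 in these 2 alone.

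**Figure D3:**
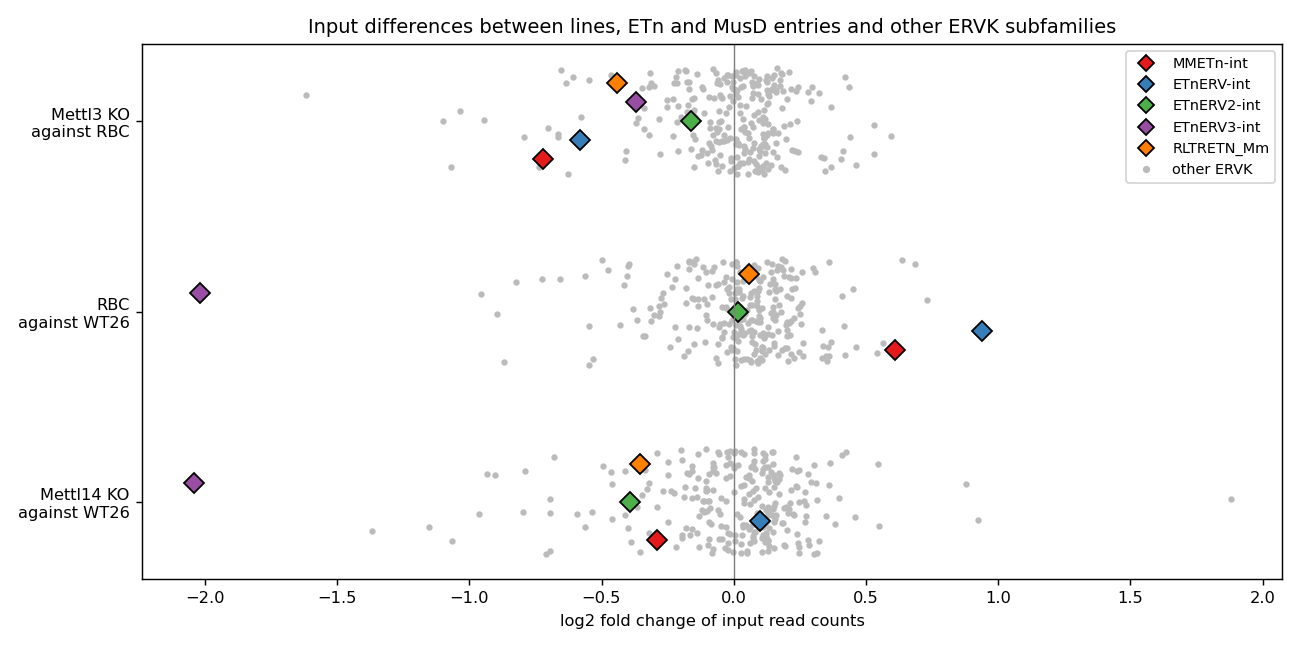
Log2 fold change of input read counts between lines for the 5 ETn and MusD entries (diamonds) and 272 other ERVK subfamilies (grey points, spread vertically at random). ETnERV3-int lies at -2.04 and -2.02 in the comparisons with WT26 and at -0.37 between *Mettl3* KO and RBC, while ETnERV-int is at 0.94 between RBC and WT26.

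Other ERVK elements are set beside these values for scale. IAPEz-int, the internal region of the abundant intracisternal A particles, had log2 fold changes of 0.00 for *Mettl14* KO against WT26, 0.09 for RBC against WT26 and 0.02 for *Mettl3* KO against RBC. IAPEy-int, a related entry, was at 0.54, 0.12 and -0.65 in the same comparisons. MMERVK10C-int was at -0.20, -0.28 and -0.18. Among the 10 RLTR10 entries RLTR10F came nearest to ETnERV3-int in these 2 comparisons with WT26, with -0.71 for *Mettl14* KO and -0.95 for RBC against WT26.

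The features whose input levels followed MMETn-int most closely over the 8 input libraries were RMER16-int, RLTR4_Mm and MER34-int among repeats (Pearson's r of log2 levels 0.954, 0.915 and 0.912) and *Rab3gap2*, *Atp11a* and *Med17* among genes (0.996, 0.988 and 0.979). For ETnERV3-int they were RLTR13B2, MMTV-int and Lx3A (0.981, 0.941 and 0.938) and *Atg13*, *Padi4* and *Gm13135* (0.982, 0.979 and 0.979). The 8 points come from 4 lines with 2 libraries each, and the highest of 13499 features were taken, so these values are descriptions and carry no p. RLTR13B2, an LTR entry, stood at 1792 and 1676 normalized counts in WT26 and at 838 to 1014 in the other lines. *Padi4*, which codes for a peptidylarginine deiminase, stood at 126 and 117 for WT26 and at 22.7 to 41.6 elsewhere. *Rab3gap2* rose and fell with MMETn-int over a narrower range, from 783 for *Mettl14* KO to 1290 for RBC.

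Set against the inputs, the IP libraries show how an RNA is represented among the RNAs that the m6A antibody retains. They give no absolute amount retained. The internal ETn and MusD entries were lower in IP than in input in every line and every pair, and the LTR entry differed less from its input, with log2 ratios of -0.965 to 0.253 over the 8 pairs. MMETn-int was at 29397 and 10868 in the WT26 IPs, 33898 and 9423 for *Mettl14* KO, 57851 and 21078 for RBC, and 49062 and 28345 for *Mettl3* KO. ETnERV-int was at 10598 and 4465 in the WT26 IPs, 14687 and 5134 for *Mettl14* KO, 23423 and 10079 for RBC, and 23493 and 17093 for *Mettl3* KO. The IP of pair 2 was the lower of the pair in each of the 4 lines for both entries.

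ETnERV2-int ranged from 564 to 1909 in the IPs. ETnERV3-int was at 5129 and 3342 in the WT26 IPs and at 447 to 1097 in those of the other lines, so its high level in WT26 was present in both kinds of library. RLTRETN_Mm was at 5917 and 3373 for WT26, 3946 and 2213 for *Mettl14* KO, 5945 and 4153 for RBC, and 5093 and 4636 for *Mettl3* KO. In *Mettl3* KO the LTR entry was higher in both IPs than in both inputs.

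**Figure D4:**
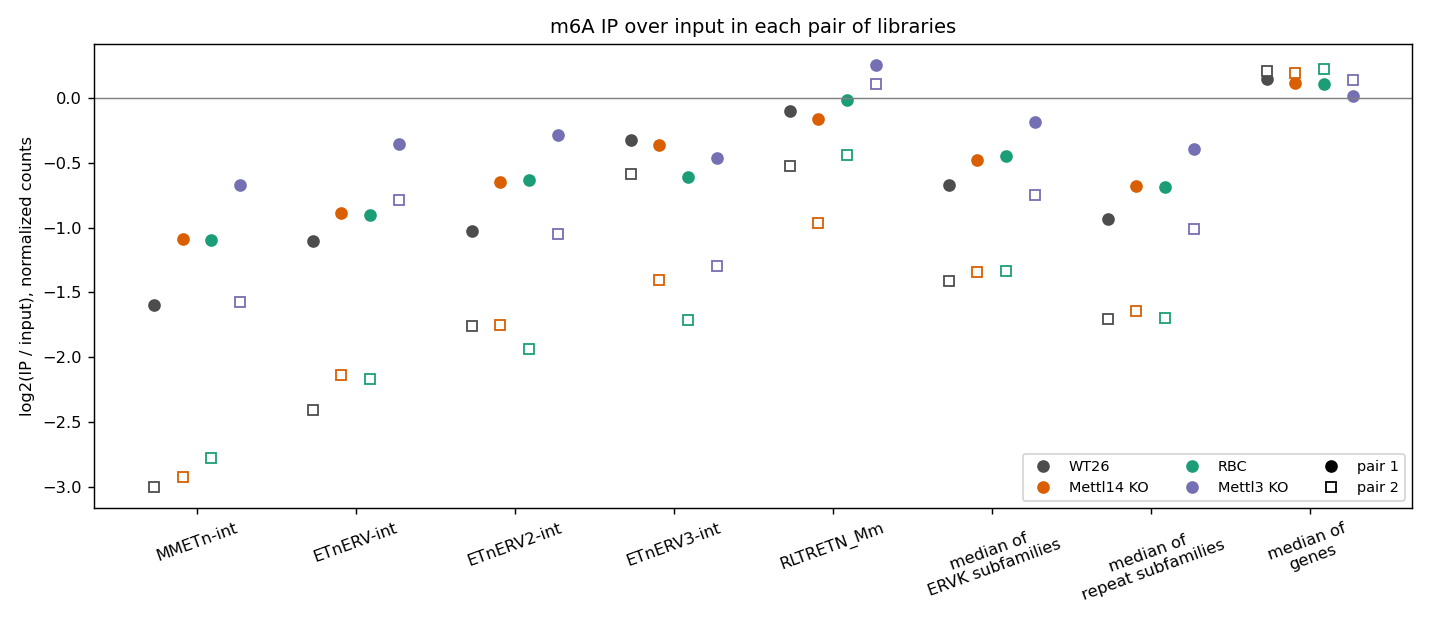
Log2 ratio of m6A IP to input (normalized counts) in each pair of libraries, for the 5 entries and for the medians of ERVK subfamilies, all repeat subfamilies and genes; filled circles are pair 1, open squares pair 2, colours the lines. MMETn-int reaches -3.00 for WT26 pair 2, the repeat medians lie from -1.71 to -0.40, and RLTRETN_Mm is the entry nearest to 0.

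In RBC, whose libraries were not used to pick the family, 4 of the 5 members were lower in IP than in input and 13.1% of all features were. MMETn-int was 3.40-fold lower (log2 fold change -1.77, adjusted p = 0.0429, edgeR), ETnERV-int 2.66-fold (-1.41, adjusted p = 0.0493), ETnERV2-int 2.28-fold (-1.19, adjusted p = 0.0421) and ETnERV3-int 2.15-fold (-1.10, adjusted p = 0.0452). RLTRETN_Mm had a log2 fold change of -0.21 (95% interval -0.89 to 0.48, adjusted p = 0.642). The median of the members was -1.19, against -0.81 for the other 272 ERVK subfamilies, -1.15 for all other repeat subfamilies and 0.08 for genes. None met both limits for enrichment (an adjusted p no greater than 0.05 with a log2 fold change over 1), which 13.4% of all features met. DESeq2 called the 4 as well (32.2% of all features in either direction), and at an unadjusted p under 0.05 there were 4 members by each tool (43.4% by edgeR).

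These 4 calls lie just under the threshold, and 0 members passed under 3 other scalings. With TMM normalization their log2 fold changes were close to the above, -1.72 to -1.065 (adjusted p = 0.0544 to 0.0651), and with scaling by library size they were -1.34 to -0.67 (adjusted p = 0.0946 to 0.204). The third scaling used size factors taken from repeats. Size factors from repeats moved the median of all features in RBC by over 1 on the log2 scale, from 0.02 to 1.32, and on that scale ETnERV3-int was at 0.062, MMETn-int at -0.68 and RLTRETN_Mm at 1.003 (adjusted p = 0.0164), which was then the 1 enriched member, as were 42.8% of the features. Without either RBC input 0 members passed, although the log2 fold changes of the 4 stayed between -1.87 and -0.97 (adjusted p = 0.103 to 0.195), and without RBC IP replicate 2 they were -1.20 to -0.73 (adjusted p = 0.305 to 0.345). The IP libraries numbered 1 or 2 could also be left out in all lines. This leaves 1 IP library per line, so the spread comes from the inputs alone and no calls are given. The log2 fold changes of the 4 in RBC were -1.17 to -0.69 without those numbered 2. Without those numbered 1 they were -2.67 to -1.59. With the block on the number within inputs and within IPs the same 4 members were lower (adjusted p = 3.74e-07 to 1.45e-05), as were 25.7% of the features.

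In *Mettl3* KO the internal members were again lower in IP than in input without overlap, as 34.1% of all features were, but none passed the test. The LTR entry was higher without overlap, as 30.6% were. The log2 fold changes were -1.07 for MMETn-int (95% interval -2.35 to 0.20, adjusted p = 0.27), -0.82 for ETnERV3-int, -0.61 for ETnERV2-int, -0.55 for ETnERV-int and 0.18 for RLTRETN_Mm. Their adjusted p ranged from 0.192 to 0.756 by edgeR, and 2.22% of all features were lower by that test. None met the limits for enrichment, which 2.54% did. At an unadjusted p under 0.05 there was 1 member by edgeR (25.7% of all features) and 2 by DESeq2, and DESeq2 called 0 by the adjusted p (12% of all features). The median of the members was -0.61, against -0.45 for other ERVK subfamilies and -0.68 for all other repeat subfamilies. With size factors from repeats ETnERV-int was at 0.15 and ETnERV2-int at 0.06. Without the 4 IP libraries numbered 1, 4 members were lower (16.9% of the features), and without those numbered 2, 1 member, MMETn-int, was (4.64%). With the block on the number within inputs and within IPs the 4 internal members were lower, MMETn-int by 1.10 on the log2 scale (adjusted p = 0.000194) and ETnERV-int by 0.54 (adjusted p = 0.0317), as were 17.1% of the features.

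The change of enrichment is the log2 ratio of IP to input of the knockout minus that of its control. Between *Mettl3* KO and RBC it was 0.86 for ETnERV-int (95% interval -0.64 to 2.36), 0.69 for MMETn-int (-1.09 to 2.47), 0.57 for ETnERV2-int, 0.39 for RLTRETN_Mm and 0.28 for ETnERV3-int, with adjusted p of 0.854 to 0.899. None of the members passed the test, nor did any of the 22621 features (0% by edgeR and by DESeq2, and 3.48% at an unadjusted p under 0.05, with 0 members among them by either tool). In simulated data this test recovered 51.5% of 4-fold changes, so it can miss changes of that size. The median of the members was 0.57, against 0.43 for other ERVK subfamilies, 0.46 for other repeat subfamilies and -0.03 for genes. Without the 4 IP libraries numbered 1, ETnERV-int (1.35, adjusted p = 0.0179), MMETn-int (1.15, adjusted p = 0.02) and ETnERV2-int (0.79, adjusted p = 0.0467) passed, as 4.26% of the features did in the higher direction. Without those numbered 2 none did, and with the block on the number within inputs and within IPs none did either (adjusted p = 0.118 to 0.485), nor did any feature in the higher direction (0%). On the scale of size factors from repeats ETnERV3-int was at -0.22 and RLTRETN_Mm at -0.085, and all features had a median of -0.52.

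In WT26 and *Mettl14* KO, which share libraries with the choice of the family, IP over input is given without a test. MMETn-int had log2 ratios of -1.60 and -3.00 in the 2 pairs of WT26 and -1.09 and -2.92 in those of *Mettl14* KO. ETnERV3-int had -0.33 and -0.58 for WT26 and -0.36 and -1.41 for *Mettl14* KO. The direction of 2 members depended on the scaling. In WT26 the fitted log2 fold change of ETnERV3-int was -0.43, and 0.89 with size factors from repeats. That of RLTRETN_Mm was -0.27 and 1.03, and it ran from -0.73 to 0.088 with 1 library left out. In *Mettl14* KO ETnERV3-int was at -0.78, and 0.31 with those factors, and RLTRETN_Mm at -0.50 and 0.62. With those factors MMETn-int was at -0.90 in WT26 and -0.735 in *Mettl14* KO, and ETnERV-int at -0.38 and -0.298. ETnERV2-int came close to its input level, from -1.36 to -0.037 in WT26 and from -1.08 to -0.006 in *Mettl14* KO. The fitted change of enrichment in *Mettl14* KO against WT26 was 0.40 for MMETn-int, 0.30 for ETnERV-int, 0.29 for ETnERV2-int, -0.24 for RLTRETN_Mm and -0.35 for ETnERV3-int, and leaving out single libraries moved that of MMETn-int from -0.80 to 1.29.

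The ratio of LTR to internal reads does not depend on scaling between libraries. RLTRETN_Mm had 2.90 to 5.27 reads per 100 internal reads in the inputs and 6.77 to 17.3 in the IPs, and the IP was higher in 8 of 8 pairs. The ratio rose 2.02-fold and 4.43-fold from input to IP in the pairs of RBC, and 1.77-fold and 2.69-fold in those of *Mettl3* KO. In WT26 it rose 2.42-fold and 4.23-fold and in *Mettl14* KO 1.8-fold and 3.19-fold. The share of MMETn-int in the family was lower in IP than in input in 8 of 8 pairs.

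Genes known for silencing ERVs were read in the nuclear RNA-seq libraries, which hold no repeat counts and were not used to pick the family. Of 36 listed genes, 22 were lower and 7 higher in *Mettl14* KO than in WT26 (27% and 25.5% of all 17021 genes tested), and 7 did not pass. In *Mettl3* KO against RBC 17 were lower, 9 higher and 10 did not pass, with 28.1% and 25.2% of all genes lower and higher. The medians of the list were -0.28 and -0.09 on the log2 scale, against 0.00 over all genes in both knockouts, and 1 gene of the list passed a log2 fold change of 1 in size in each knockout. The change differed between the knockouts for 22 of the 36 by the test of that difference, and for 43.2% of all genes. Without RBC RNA-seq replicate 2, 17 genes of the list were called in *Mettl3* KO in place of 26.

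That gene was *Dnmt3l*, a cofactor of the de novo DNA methyltransferases on chromosome 10 (GRCm38 78041947-78063622). It was at 775 and 860 normalized counts in WT26 and 191 and 183 for *Mettl14* KO (log2 fold change -2.12, adjusted p = 6.54e-12), and at 936 and 809 for RBC and 304 and 331 for *Mettl3* KO (-1.46, adjusted p = 2.57e-10). Both controls lay above both knockouts. *Dnmt1*, the maintenance DNA methyltransferase, fell by 0.38 for *Mettl14* KO and by 0.69 for *Mettl3* KO on the log2 scale (adjusted p = 3.25e-06 and 1.6e-09).

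*Trim28*, the corepressor that KRAB zinc finger proteins recruit to ERVs, was at 11492 and 12155 for WT26, 8287 and 7952 for *Mettl14* KO, 14164 and 14442 for RBC, and 8227 and 8867 for *Mettl3* KO. It was lower in both knockouts (log2 fold changes -0.54 and -0.74, adjusted p = 2.47e-07 and 4.16e-09). *Setdb1*, the H3K9 methyltransferase recruited by Trim28, was at 3531 and 3299 for WT26 and 1976 and 2115 for *Mettl14* KO, and at 2980 and 2994 for RBC and 3359 and 3307 for *Mettl3* KO. It fell in *Mettl14* KO (-0.74, adjusted p = 1.21e-09) and rose in *Mettl3* KO (0.16, adjusted p = 0.0119), and the latter call was lost without either RBC library. *Resf1*, a partner of Setdb1 in ERV repression, fell by 0.95 for *Mettl14* KO (adjusted p = 5.04e-11). In *Mettl3* KO it had a log2 fold change of -0.14 (adjusted p = 0.0238), a call lost with scaling by library size (0.011, adjusted p = 0.872), without RBC RNA-seq replicate 2 and without *Mettl3* KO RNA-seq replicate 1.

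*Suv39h1*, another H3K9 methyltransferase, rose in both knockouts (log2 fold changes 0.90 and 0.50, adjusted p = 2.62e-08 and 2.13e-05). *H3f3b*, a gene for histone H3.3, rose in *Mettl14* KO (0.68, adjusted p = 5.99e-07). In *Mettl3* KO it was at 0.23 (adjusted p = 0.0159 by edgeR and 0.133 by DESeq2), and the call was also lost without RBC RNA-seq replicate 1 and without *Mettl3* KO RNA-seq replicate 2. *Pphln1*, a subunit of the HUSH silencing complex, rose in *Mettl3* KO (0.49, adjusted p = 7.06e-05). In *Mettl14* KO it was at 0.26 (adjusted p = 0.0151 by edgeR and 0.129 by DESeq2), and the call was also lost without WT26 RNA-seq replicate 1 and without *Mettl14* KO RNA-seq replicate 1. *Zfp932* and *Gm15446* are neighbouring KRAB zinc finger genes known to bind ERVK elements. *Zfp932* fell by 0.49 for *Mettl14* KO (adjusted p = 0.000209) and rose by 0.36 for *Mettl3* KO (adjusted p = 0.00222). *Gm15446* was at 348 and 342 for WT26 and 318 and 334 for *Mettl14* KO (-0.08, adjusted p = 0.468), and it rose in *Mettl3* KO (0.37, adjusted p = 0.00276) but not without RBC RNA-seq replicate 2 (0.25, adjusted p = 0.0822). These 2 genes are close copies and may share reads. *Dnmt3l*, *Trim28*, *Setdb1*, *Suv39h1* and *Gm15446* overlap genes on the other strand, with the limit given above for *Mettl3*.

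**Figure D5:**
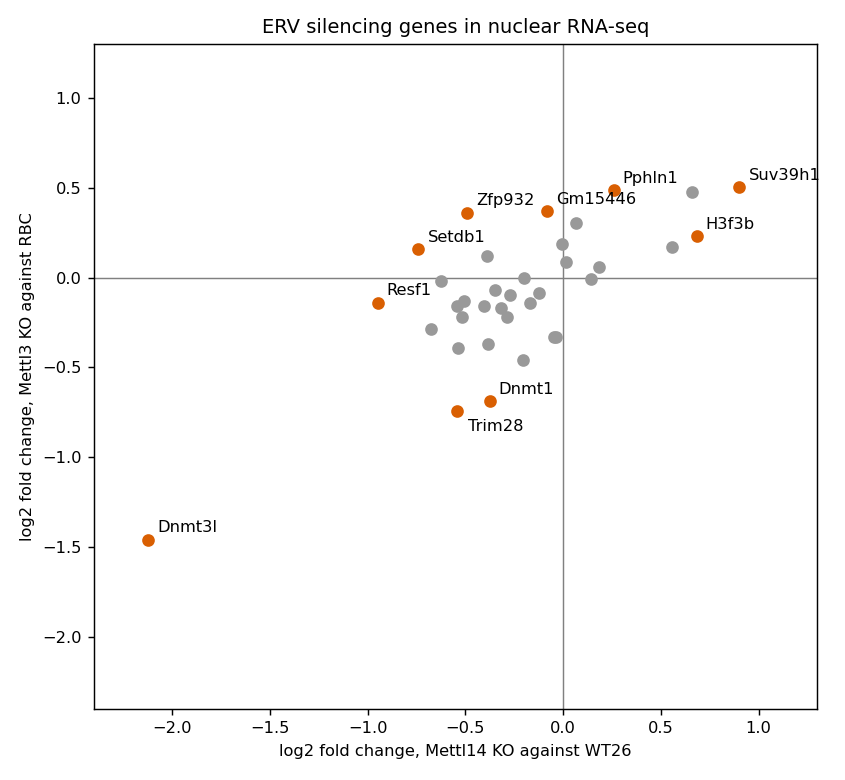
Log2 fold change in nuclear RNA-seq of 36 genes known for silencing ERVs, *Mettl14* KO against WT26 (x axis) and *Mettl3* KO against RBC (y axis); each point is a gene and the named ones are in orange. *Dnmt3l* lies at -2.12 and -1.46, while *Setdb1* (-0.74 and 0.16) and *Zfp932* (-0.49 and 0.36) lie on opposite sides of 0.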

How the data were processed

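For MeRIP-seq the authors combined 3 MeRIP reactions per biological replicate, used cutadapt 1.8.1 for trimming and STAR 2.6.0c for alignment to GRCm38 (at most 100 positions per read) and counted genes and RepeatMasker subfamilies with TEtranscripts 2.0.3, which divides multimapping reads among copies. The authors deposited raw read counts in both tables, without normalization. For RNA-seq the submitters' notes name cutadapt 1.8.1, STAR 2.6.0c and DESeq2 1.26.0, and the counting tool is not given in the sources used here. All columns were assigned to samples by their labels.

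Counts were tested with edgeR 4.0.16 (quasi-likelihood test) in R 4.3.3, with the size factors of DESeq2 1.42.0, filterByExpr, all libraries of a table in 1 fit and Benjamini-Hochberg adjustment over 22621 features or 17021 genes. Size factors were computed over all features. The limit for a call was an adjusted p of 0.05 or less, and enrichment in IP also needed a log2 fold change over 1. Ratios per pair used a pseudocount of 1. Figures were drawn with Python 3.11.15.

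The members, the gene lists and the tests were chosen with earlier results of these data known. All members are named, with the called silencing genes of the 5 largest changes per knockout, *Trim28*, *Setdb1*, *Zfp932* and *Gm15446*, and the 3 repeats and 3 genes most like MMETn-int and ETnERV3-int among features with a mean of at least 50 normalized input counts.

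Input and IP of a number and line come from the same RNA by the study's methods, and their deviations from the group means correlated at 0.195 to 0.28. Replicates are called biological by the study, and p-values measure the spread between these samples. No pair of replicates agreed within sampling noise. Totals set counting error only. The tests were run first on simulated data with 4-fold changes in 200 features. They recovered 91% for input in *Mettl3* KO against RBC, 92.5% for IP over input in RBC and 100% for RNA-seq in *Mettl3* KO. For the change of enrichment between *Mettl3* KO and RBC they recovered 51.5%. The simulated libraries were independent, with a spread set by mean level alone and without the shift shared by the IPs of 1 number. The recovery for the members themselves was not tested and may be lower. Alternatives were TMM, library size, size factors from repeats or from genes, DESeq2's Wald test, no filter, at least 10 counts in every library, only the lines compared, blocks on replicate number or on pairs, and each library left out. Fits with input libraries only, without the IPs of 1 number, and with a block on the number within inputs and within IPs were chosen after seeing the data.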

Additional observations from a re-analysis of the deposited data

Results flagged for a closer look

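For 9 of the 10 named silencing genes the RNA-seq change in *Mettl14* KO differed from that in *Mettl3* KO by edgeR's test of the difference itself (adjusted p of at most 0.05), as it did for 22 of the 36 listed genes and 43.2% of all genes tested. The 10 were picked in part by the size of their changes in these same libraries, so the 9 of 10 does not stand for the list. The difference is the log2 fold change in *Mettl14* KO against WT26 minus that in *Mettl3* KO against RBC. The largest were those of *Setdb1* (-0.90, adjusted p = 1.97e-08), which fell in *Mettl14* KO and rose in *Mettl3* KO, *Zfp932* (-0.85, adjusted p = 3.4e-05), with the same opposed directions, and *Resf1* (-0.81, adjusted p = 6.83e-08), which was at -0.95 in *Mettl14* KO and -0.14 in *Mettl3* KO. *Dnmt3l* also fell more in *Mettl14* KO (-0.67, adjusted p = 0.000483). *Gm15446* differed by -0.45 (adjusted p = 0.00915). *H3f3b* and *Suv39h1* were further above their control in *Mettl14* KO, by 0.45 and 0.40 (adjusted p = 0.00222 and 0.00601). *Dnmt1* and *Trim28* fell more in *Mettl3* KO, with differences of 0.31 and 0.20 (adjusted p = 0.00103 and 0.0461). By DESeq2 the difference of *Gm15446* had an adjusted p of 0.0889 and those of the other 8 genes were at most 0.0396. The 2 knockouts come from different parent lines, so gene and line cannot be told apart.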

How the results depend on the processing

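The count of 4 members lower in IP than in input in RBC was 0 with TMM, with library size and with size factors from repeats, and 0 to 4 with 1 library left out. With size factors from repeats 1 member was enriched in RBC. In *Mettl3* KO, where 0 were lower, 1 was with no filter on low counts, 1 without the IPs numbered 2 and 4 without those numbered 1. Without those numbered 1 the changed enrichments rose from 0 to 3, and with inputs alone the members called in input *Mettl3* KO against RBC rose from 0 to 2. With the replicate number as a block within inputs and within IPs, 1 member was called in that comparison and 4 were lower in IP in *Mettl3* KO. Why these counts moved was not tested. The silencing genes called were 1 in each knockout at a log2 fold change above 1 in size, 25 to 29 (*Mettl14* KO) and 17 to 23 (*Mettl3* KO) with 1 library left out. The summed log2 ratio was -0.34 with size factors from repeats in *Mettl14* KO (-0.30 to -0.22 with 1 library left out) and -0.55 with library size in *Mettl3* KO (-0.75 to -0.58).

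*Resf1* in *Mettl3* KO was at 0.011 with library size. Directions turned in the tested comparisons of IP over input as follows, and those in WT26 and *Mettl14* KO are given above. RLTRETN_Mm in RBC was at 0.25 with library size, 1.003 with size factors from repeats, 0.076 without the IPs numbered 2 and -0.48 to 0.04 with 1 library left out (0.04 without RBC IP replicate 2), and ETnERV3-int in RBC was at 0.062 with size factors from repeats. In *Mettl3* KO ETnERV-int and ETnERV2-int were at 0.15 and 0.06 with the same factors. The change of enrichment of ETnERV3-int was -0.22 and that of RLTRETN_Mm -0.085 with them, and that of ETnERV3-int ran from -0.19 to 0.76 with 1 library left out, below 0 without RBC IP replicate 2 (-0.085) and without *Mettl3* KO IP replicate 1 (-0.19).

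Pairing input with IP as a block left 4 members lower in RBC and 0 in *Mettl3* KO, as did a block on the replicate number, which also left 29 and 26 silencing genes called and changed no other call. Across lines the sources used here name nothing that same-numbered libraries share, yet in MeRIP-seq they deviated together: deviations of inputs correlated at 0.251 to 0.452 and those of IPs at 0.598 to 0.806. In RNA-seq the correlation was -0.071 for WT26 with *Mettl14* KO and 0.453 for RBC with *Mettl3* KO. With 2 libraries per group, leaving out 1 leaves a lone sample that is assumed to vary like the rest.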
